A study of Mus musculus with 15 samples.

Results

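IgE plasma cells (IgE PC, 3 RNA-seq libraries) were compared with IgG1 plasma cells (IgG1 PC, 3 libraries), 6 of the 15 libraries of a study of mouse B cells differentiated in vitro. The libraries were chosen by their titles alone, which name the sorted subset and number the biological replicates. All cells were wild-type B cells given IL-4 (100 ng/ml) on a layer of 40LB cells until day 6, then moved off this feeder layer into RPMI medium with no stimulus for 2 days and sorted at day 8. The strain of the mice, the gates of the sort and whether the replicates were separate animals or cultures are not given in the sources used here, so p-values measure the spread between these libraries. The other 9 libraries, 3 each of day 6 bulk culture (D6) and of day 8 IgE and IgG1 cells labelled iGC, enter only where the spread of replicates or the feeder layer is described. The study's title concerns calcium signalling in the differentiation and survival of IgE plasma cells, and the comparison asks how plasma cells of these isotypes differ beyond the isotype genes.

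Plasma cells are the antibody-secreting end stage of the B cell lineage. Their state depends on the transcription factors Irf4, Blimp-1 (Prdm1) and Xbp1, on a large endoplasmic reticulum (ER) that folds and exports immunoglobulin, and on loss of the B cell programme held by Pax5. Protein load in the ER is sensed by Ire1 (Ern1), Atf6 and Perk (Eif2ak3), the sensors of the unfolded protein response. Perk and other kinases of the translation factor eIF2 also raise the factor Atf4, which switches on amino acid transport, amino acid synthesis and tRNA charging, a programme known as the integrated stress response. IgE plasma cells are known as a rare and often short-lived population, and surface IgE is known to signal through the B cell receptor. The 40LB feeder layer is a fibroblast line that presents CD40 ligand and BAFF to the B cells.

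The labels were checked first. The IgE constant gene Ighe was at 95170 to 104100 CPM (counts scaled to a common total, here the raw one) in IgE PC and at 1291 to 2041 in IgG1 PC, and Ighg1 at 1350 to 1488 and 66950 to 97980. The plasma cell genes Sdc1, Irf4, Xbp1 and Prdm1 were at 128 CPM or more in all 6 libraries. The deposited expected counts summed to between 37559580 and 43438021 per IgE PC library and between 32638720 and 54067953 per IgG1 PC library. Immunoglobulin genes took 19.76%, 19.99% and 21.5% of the counts in IgE PC and 21.7%, 15.3% and 16.1% in IgG1 PC, a difference of 2.71 percentage points (exact permutation test, two-sided, p = 0.4, where 0.1 is the smallest p that 3 against 3 libraries allow). Among defining genes of other blood cells, the T cell gene Cd3e was at 0 in 5 libraries and the macrophage gene Csf1r at no more than 0.126 CPM. Summed over 12 T cell genes the level was 2.04 to 2.38 CPM in IgE PC and 5.15 to 6.08 CPM in IgG1 PC, and over 14 macrophage genes 14.6 to 16.1 and 21.3 to 26.4 CPM. The macrophage sum was thus not near 0. Of the tested genes, 3 of 3 macrophage genes and 2 of 5 T cell genes were called lower in IgE PC. The lists of NK cells, of mast cells and basophils and of erythroid cells each had 1 tested gene, called lower. Their sums were no more than 2.77 CPM in any plasma cell library. So few genes were tested that nothing is read from these shares. Genes of dendritic cells, given further on, were not near 0 either. Their sum over 8 genes was 8.96 to 10.2 CPM in IgE PC and 37.2 to 62.5 CPM in IgG1 PC.

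Replicates were less alike in IgG1 PC than in any other group of the series. The standard deviation (SD) of log2 CPM over 3 replicates had a median of 0.20 over 15692 genes in IgG1 PC, against 0.0999 in IgE PC, 0.088 in D6, 0.11 in IgE iGC and 0.089 in IgG1 iGC. The biological coefficient of variation that edgeR estimated within each group was 18.8% for IgG1 PC and 5.87% to 7.02% for the other 4 groups. Of the 14316 genes tested, 10637 (74.3%) had a larger SD in IgG1 PC than in IgE PC. The 3 IgG1 PC libraries are therefore given singly for the genes described.

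IgE PC and IgG1 PC differed in a large share of the genes they express. Counts were scaled by TMM to CPM and compared with edgeR's quasi-likelihood test. A gene was called at a Benjamini-Hochberg adjusted p under 0.05. Of 14316 genes tested, 7215 (50.4%) were called, 3474 (24.3%) higher in IgE PC and 3741 (26.1%) lower. The balance changed among large differences. At least 2-fold differences were called for 562 genes (3.93%) higher in IgE PC and for 1701 genes (11.9%) lower. With libraries scaled by their total counts in place of TMM, 1750 genes were called higher and 5760 lower, and the median over all tested genes moved from -0.02 to -0.26 (log2). Of the called genes named below, Psat1, Psph, Eif2ak1, Shmt2, Foxo1, Itpr2 and S1pr1 lost their call under that scaling, as did Stim1, Ppp3cb, Nfatc3, Mcl1, Mzb1 and Cxcl10. All 3 libraries of a group lay above all 3 of the other for 8858 genes (61.9%). Among the 1701 genes that were lower in IgE PC by at least 2-fold, the lowest IgG1 PC library was still at least 2-fold above the highest IgE PC library in 828. Among the 562 higher genes the same held, the other way round, for 225. In bulk libraries fewer cells of a type and less RNA per cell cannot be told apart.

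Named lists of genes showed which functions moved. Shares called in each of 28 lists are read against the 24.3% and 26.1% that all genes gave, and a list's median log2 fold change against the overall -0.02. The secretory pathway and the integrated stress response lay far on the IgE side, and DNA replication and MHC class II far on the IgG1 side. A gene near 0 in a group can pass the count filter through the other group and then had to differ, so nothing is read from the shares of the chemokine and of the MS4A and LILR lists, which hold many such genes.

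**Figure D1:**
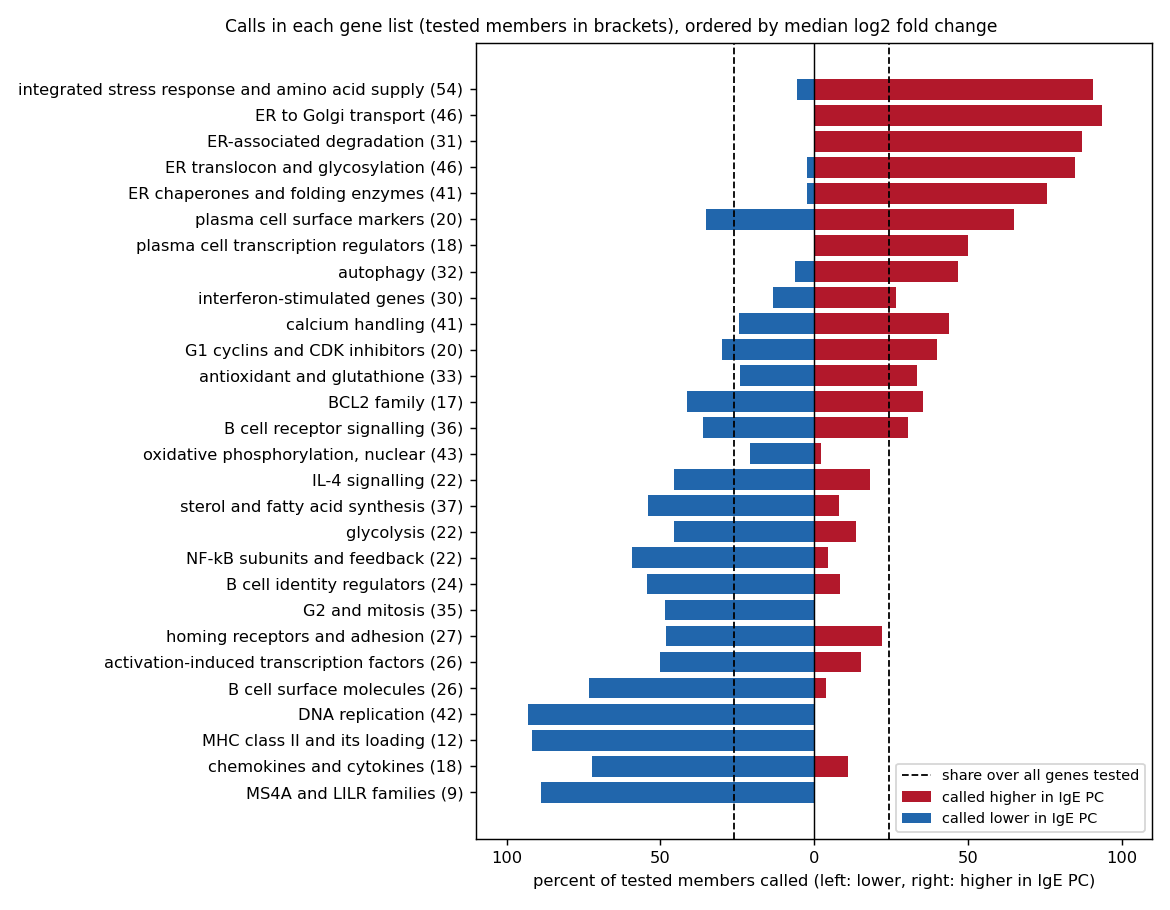
Percent of tested members called higher (red, to the right) or lower (blue, to the left) in IgE PC for 28 gene lists, ordered by median log2 fold change, with the number of tested members in brackets. Dashed lines mark the shares over all genes tested, 24.3% higher and 26.1% lower; the 5 lists at the top had from 31 of 41 to 43 of 46 members called higher.

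The 15 largest rises in IgE PC, taken among named genes other than immunoglobulin genes, mitochondrial genes and pseudogenes, with groups that did not overlap and a mean of at least 10 CPM in a group, held 6 genes of amino acid supply and the stress response. Slc7a11, the cystine importer of system xc-, was at 25.6, 22.96 and 26.2 CPM in IgE PC and at 2.19, 3.19 and 3.54 CPM in IgG1 PC, 8.26-fold higher (log2 fold change 3.05, SE 0.17, adjusted p = 3.05e-05). Trib3, a pseudokinase induced by Atf4, was at 112, 116 and 119.7 against 18.2, 11.6 and 15.7 CPM, 7.69-fold higher (log2 fold change 2.94, SE 0.16, adjusted p = 3.05e-05). Every IgE PC library was over every IgG1 PC library for both genes, and the spread within either group was small beside the gap. The glycine transporter Slc6a9 was at 97.8, 106 and 121 against 16.6, 13.2 and 18.2 CPM (log2 fold change 2.76, SE 0.14, adjusted p = 3.05e-05). The mitochondrial folate enzyme Aldh1l2 was at 55.99, 52.3 and 60.2 against 9.78, 9.57 and 11.9 CPM (log2 fold change 2.43, SE 0.11, adjusted p = 2.57e-05), and Cth, which makes cysteine from cystathionine, at 70.8, 68.5 and 76.03 against 15.6, 14.2 and 17.4 CPM (log2 fold change 2.19, SE 0.095, adjusted p = 2.57e-05). Slc3a2, the heavy chain that Slc7a11 and several other amino acid carriers need at the membrane, was at 1434, 1405 and 1559 against 367, 257 and 316 CPM (log2 fold change 2.23, SE 0.14, adjusted p = 4.22e-05). All 6 are listed members of the stress and amino acid programme that follows.

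The other 9 of the 15 belong to none of the lists. Arhgap32, a GTPase-activating protein, had the largest rise outside immunoglobulin genes, from 0.384, 0.785 and 1.03 CPM in IgG1 PC to 11.1, 10.5 and 11.96 CPM in IgE PC (log2 fold change 3.88, SE 0.27, adjusted p = 5.41e-05). Its IgG1 PC level, near or under 1 CPM, rests on few counts. The histone deacetylase Hdac9 was at 166, 147 and 159 against 22.4, 28.7 and 23.9 CPM (log2 fold change 2.65, SE 0.11, adjusted p = 2.57e-05), and Tlr4, the receptor for bacterial lipopolysaccharide, at 47.4, 40.8 and 51.4 against 7.27, 12.1 and 10.7 CPM (log2 fold change 2.21, SE 0.18, adjusted p = 9.88e-05). Arfgef3 was 6.24-fold higher, Angptl6 6.76-fold, Crisp3 5.32-fold, Gcsam 4.72-fold and Fam84b 4.64-fold. The groups did not overlap for any of these genes. Hist1h2ao, a core histone gene whose reads can be split among near-identical copies, was at 9.38, 10.3 and 20.04 against 3.01, 0 and 2.85 CPM (log2 fold change 2.81, SE 0.90, adjusted p = 0.0319), and its call was lost under 10 of 15 alternative analyses, so it is uncertain.

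**Figure D2:**
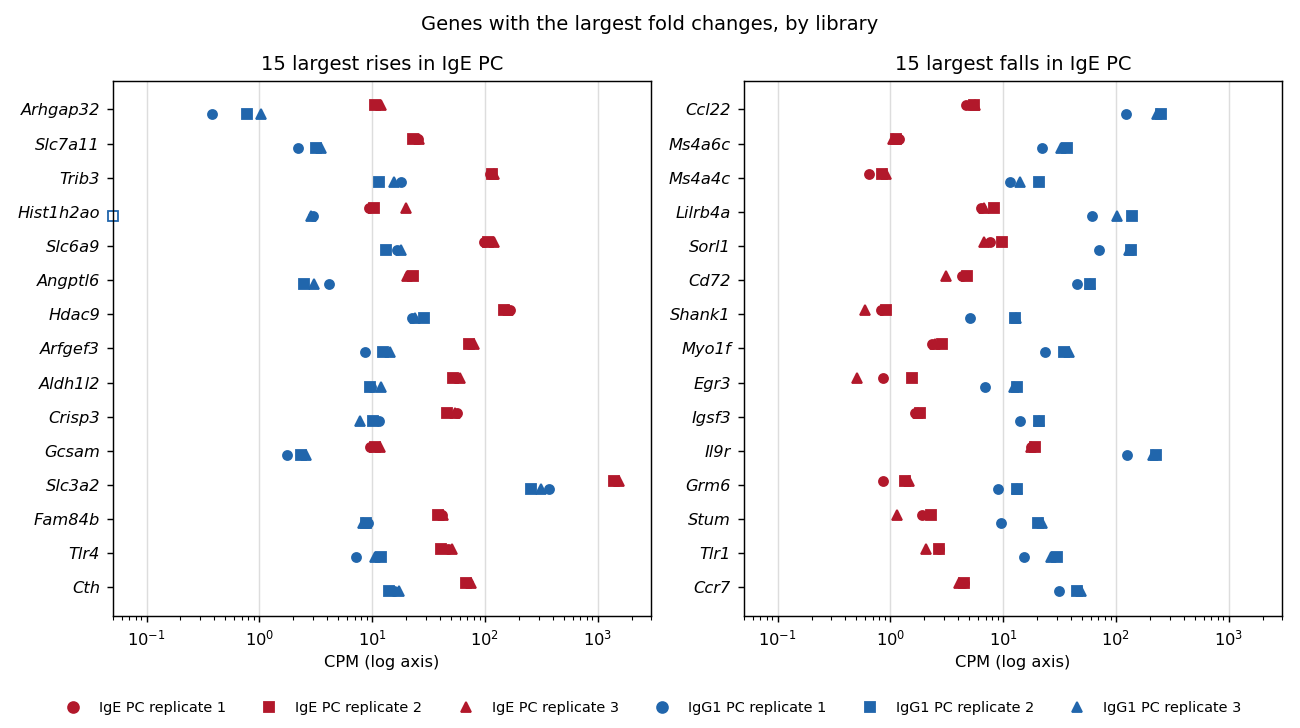
CPM of the 15 largest rises (left) and the 15 largest falls (right) in IgE PC, on a log axis, with a point for each library (red, IgE PC; blue, IgG1 PC; circle, square and triangle, replicates 1, 2 and 3). The open square for Hist1h2ao at the left edge stands for 0 CPM; in each row every red point is on the same side of every blue point.

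The integrated stress response and the supply of amino acids formed the list with the highest median. Of 56 genes listed, 54 were tested, and 49 were called higher in IgE PC, 3 lower and 2 not, with a median log2 fold change of 1.05. Atf4 itself, the transcription factor at the centre of the programme, was at 766, 765 and 753 CPM in IgE PC and 437, 333 and 339.7 CPM in IgG1 PC (log2 fold change 1.04, SE 0.11, adjusted p = 0.000328). Its partner genes moved the same way. Ddit3, the stress factor CHOP, was at 83.97, 84.7 and 76.7 against 36.8, 24.04 and 28.7 CPM (log2 fold change 1.46, SE 0.15, adjusted p = 0.00022). Atf5, a factor translated under the same control, was at 859.6, 897 and 899.6 against 291, 205 and 257 CPM (log2 fold change 1.82, SE 0.13, adjusted p = 5.85e-05). Cebpg, a dimer partner of Atf4, was at 139, 129 and 144 against 48.3, 46.5 and 44.1 CPM (log2 fold change 1.57, SE 0.078, adjusted p = 3.05e-05). Sesn2, which links amino acid sensing to mTORC1, was at 229, 241 and 262 against 71.6, 61.99 and 79.6 CPM (log2 fold change 1.78, SE 0.11, adjusted p = 4.22e-05). In each of these 5 genes the lowest IgE PC library exceeded the highest IgG1 PC library, and replicate 1 was the highest IgG1 PC library in 4.

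Amino acid carriers, synthetic enzymes and tRNA synthetases rose together. Slc7a5, the large neutral amino acid carrier that pairs with Slc3a2, was at 911, 959 and 1074 against 244, 221 and 267 CPM, 4.03-fold higher (log2 fold change 2.01, SE 0.11, adjusted p = 3.05e-05). The cationic carriers Slc7a1 and Slc7a3 were 2.30-fold and 3.82-fold higher. Asns, asparagine synthetase, was at 266, 277 and 312 against 108, 93.7 and 108 CPM (log2 fold change 1.47, SE 0.096, adjusted p = 4.77e-05). The serine-pathway enzyme Phgdh was at 415, 441 and 494 against 262, 216 and 261 CPM (log2 fold change 0.87, SE 0.11, adjusted p = 0.000528), and Psat1 and Psph, the next enzymes of that pathway, were 1.47-fold and 1.32-fold higher. All 12 tRNA synthetase genes on the list were called higher, from 0.63 for Lars to 1.16 for Eprs on the log2 scale. The eIF2 kinases did not all move alike. Eif2ak3 (Perk) was at 176, 183 and 188 against 108, 102 and 102 CPM (log2 fold change 0.82, SE 0.069, adjusted p = 0.000113) and Eif2ak2 and Eif2ak1 were also called higher, at log2 fold changes of 0.68 and 0.32. Eif2ak4 (Gcn2), the kinase that senses uncharged tRNA, was lower, at 22.7, 22.8 and 23.6 against 27.4, 30.3 and 31.6 CPM (log2 fold change -0.37, SE 0.077, adjusted p = 0.00544).

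The other 2 genes called lower on that list are enzymes of folate metabolism. Shmt1, the cytosolic serine hydroxymethyltransferase, was at 5.09, 5.2995 and 4.41 CPM in IgE PC and 19.2, 24.04 and 25.3 CPM in IgG1 PC (log2 fold change -2.21, SE 0.13, adjusted p = 4.04e-05). Its mitochondrial counterpart Shmt2 was at 242, 261 and 295 against 209, 179 and 211 CPM (log2 fold change 0.41, SE 0.10, adjusted p = 0.0122), and Mthfd2, which follows it, at 137, 142 and 159.8 against 55.6, 56.4 and 62.4 CPM (log2 fold change 1.33, SE 0.089, adjusted p = 5.1e-05). The cytosolic and the mitochondrial hydroxymethyltransferase genes thus differed in opposite directions, although the call of Shmt2 was lost under total-count scaling. Mthfd1l, which releases formate from mitochondria, was lower, at 25.996, 30.1 and 28.9 against 35.9, 45.2 and 45.6 CPM (log2 fold change -0.58, SE 0.11, adjusted p = 0.00372). Slc38a1, at 232, 226 and 232 against 136, 207 and 201 CPM, and Nupr1, at 4.51, 3.805 and 3.82 against 3.57, 1.37 and 3.77 CPM, were not called.

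Promoters of the integrated stress response list were searched for the element through which Atf4 is known to bind with C/EBP partners. This C/EBP-ATF response element, written TGATGNAA, was searched on both strands of RefSeq windows of 300 bases (GRCm38.p6, 250 bases before and 50 after the start). A window was at hand for 43 genes of the list, and 14 held the element (32.6%), against 2.79% of the 9863 tested genes with a window. The list was drawn up around the programme that Atf4 is known to switch on. A high share of the element therefore comes with the choice of list and says nothing about these cells. Of those 14 genes, 13 were called higher (median log2 fold change 1.20), and of the 29 without it 24 were (median 1.04), and no test of this difference was made. The stretches printed here show the element, in capitals, on the gene's strand (in Chac1 in reverse orientation), in genes already named and in Chac1, a glutathione-degrading enzyme that was at 73.003, 87.5 and 96.6 against 25.2, 21.2 and 35.1 CPM (log2 fold change 1.66, SE 0.19, adjusted p = 0.00039), and Pycr1, an enzyme of proline synthesis, at 45.5, 48.2 and 50.02 against 29.6, 20.2 and 26.1 CPM (log2 fold change 0.92, SE 0.13, adjusted p = 0.00109). The match begins 66 bases before the start site in Slc7a11, 193 in Chac1, 23 in Asns and 103 in Pycr1. A match describes letters and not binding.
Slc7a11 (chr3:50443642-50443709, minus strand): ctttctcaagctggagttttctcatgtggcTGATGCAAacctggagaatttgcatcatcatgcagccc
Chac1 (chr2:119351019-119351086, plus strand): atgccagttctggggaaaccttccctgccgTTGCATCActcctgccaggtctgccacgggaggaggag
Asns (chr6:7693210-7693262, minus strand): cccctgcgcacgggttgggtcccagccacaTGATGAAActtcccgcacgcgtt
Pycr1 (chr11:120643814-120643881, minus strand): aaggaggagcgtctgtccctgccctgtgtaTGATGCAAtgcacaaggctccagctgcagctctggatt

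Slc7a11 also held a second, oppositely oriented copy that begins 47 bases before the start site, and in Trib3 the match lay 14 bases after it.

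ER chaperones, folding enzymes and the sensors of the unfolded protein response were mostly higher in IgE PC. Of 42 genes listed, 41 were tested, and 31 were called higher, 1 lower and 9 not, with a median log2 fold change of 0.63. Hspa5 (BiP), the ER Hsp70 that holds unfolded chains, was at 5885, 5809.5 and 6142 CPM in IgE PC and 2613, 2121 and 1956 CPM in IgG1 PC (log2 fold change 1.41, SE 0.12, adjusted p = 0.000125). Its exchange factor Hyou1 was at 2444, 2425 and 2586 against 1172, 910.3 and 941 CPM (log2 fold change 1.302, SE 0.11, adjusted p = 0.000129). Dnajb9, a BiP co-chaperone, was at 413, 351 and 405 against 104, 120.5 and 80.7 CPM (log2 fold change 1.94, SE 0.15, adjusted p = 8.19e-05). The groups did not overlap in any of these 3 genes. The oxidase Ero1l, which feeds disulfide formation, was at 405, 393 and 457 against 103, 117 and 105 CPM (log2 fold change 1.95, SE 0.093, adjusted p = 2.8e-05). The 3 sensors were all higher. Ern1 was at 724, 695 and 716 against 192, 200.1 and 214 CPM (log2 fold change 1.82, SE 0.077, adjusted p = 2.57e-05), Atf6 at 636, 618 and 661 against 279, 294 and 273 CPM (log2 fold change 1.18, SE 0.074, adjusted p = 4.5e-05), and Eif2ak3 as given above. Pdia5 was the gene called lower, at 0.223, 0.136 and 0.118 against 0.679, 0.284 and 0.431 CPM, and its call was lost under 6 of 15 alternatives. It passed the count filter through IgG1 PC, so nothing is read from its call.

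In this list IgG1 PC replicate 1 stood nearest to the IgE PC libraries. It was the highest of the 3 IgG1 PC libraries in 22 of the 31 genes called higher, against 35.3% of all genes tested. Mzb1, a plasma cell cofactor of immunoglobulin folding, was at 2452, 2452 and 2352 CPM in IgE PC and at 2265, 1390.2 and 1412 CPM in IgG1 PC (log2 fold change 0.52, SE 0.19, adjusted p = 0.0487), and its call was lost under 6 of 15 alternatives. Fkbp11, at 49.2, 48.9 and 46.6 against 46.8, 25.1 and 29.1 CPM, and Prdx4, at 159, 157 and 169 against 164, 110.3 and 106 CPM, were not called. Both had the same high IgG1 PC replicate 1. With replicate 1 of IgG1 PC left out, 38 genes of the list were called higher.

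The ER stress response element, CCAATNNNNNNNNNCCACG, to which Atf6 and Xbp1 are known to bind, was found on either strand in 7 of 34 chaperone list genes with a window (20.6%), against 0.183% of tested genes. This list too was drawn up by function, so its share of the element says nothing about these cells. The element and the C/EBP-ATF element do not contain each other. All 7 were called higher (median log2 fold change 1.05), as were 17 of the 27 without it (median 0.57). The stretches show it in Hspa5, in Hsp90b1, the ER Hsp90 at 11114, 10821 and 11576 against 6441, 5293 and 4445 CPM (log2 fold change 1.05, SE 0.14, adjusted p = 0.000804), in Creld2, a stress-induced disulfide isomerase at 628, 606 and 663 against 351, 207 and 227 CPM (log2 fold change 1.27, SE 0.19, adjusted p = 0.00123), and in Derl3, a channel component of ER-associated degradation at 342, 334 and 336 against 194, 114 and 129 CPM (log2 fold change 1.21, SE 0.18, adjusted p = 0.00131). The match begins 65 bases before the start site in Hspa5, 107 in Hsp90b1, 126 in Creld2 and 156 in Derl3, and the last 3 stand in reverse orientation. Hsp90b1 holds another copy that begins 212 bases before the start site.
Hspa5 (chr2:34771995-34772073, plus strand): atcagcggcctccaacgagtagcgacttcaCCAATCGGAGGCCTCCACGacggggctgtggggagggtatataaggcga
Hsp90b1 (chr10:86705503-86705581, minus strand): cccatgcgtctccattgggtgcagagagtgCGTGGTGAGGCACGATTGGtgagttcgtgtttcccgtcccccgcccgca
Creld2 (chr15:88819490-88819568, plus strand): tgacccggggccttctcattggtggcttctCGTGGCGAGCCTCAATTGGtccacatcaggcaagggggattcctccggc
Derl3 (chr10:75893212-75893290, plus strand): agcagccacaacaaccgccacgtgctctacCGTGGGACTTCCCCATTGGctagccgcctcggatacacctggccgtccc

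The steps after folding followed the chaperones. For ER-associated degradation, which returns misfolded chains to the cytosol, 31 of 32 listed genes were tested and 27 were called higher and none lower (median log2 fold change 0.73). Sel1l, the adaptor of the Hrd1 ubiquitin ligase, was at 1565, 1549 and 1736 CPM in IgE PC and 485, 471 and 466 CPM in IgG1 PC, 3.41-fold higher (log2 fold change 1.77, SE 0.083, adjusted p = 2.74e-05). Herpud1, which organises the same ligase, was at 1827, 1863 and 2187 against 666, 523 and 604 CPM (log2 fold change 1.71, SE 0.12, adjusted p = 5.74e-05). The ligase gene Syvn1 itself rose less, at 797, 802 and 827 against 568, 426 and 463 CPM (log2 fold change 0.74, SE 0.11, adjusted p = 0.00145), and Edem2, at 389, 388 and 395 against 380.1, 263 and 284 CPM, was not called. Sel1l had nearly the same level in all 3 IgG1 PC libraries, unlike Mzb1.

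Genes of entry into the ER and of export from it moved with them. Of 46 translocon and glycosylation genes, 39 were called higher and 1 lower (median log2 fold change 0.70). Ssr3, of the translocon-associated complex, was at 1253, 1169 and 1376 against 462, 542 and 433 CPM (log2 fold change 1.40, SE 0.11, adjusted p = 8.88e-05), and Stt3a, the catalytic subunit of the oligosaccharyltransferase that works beside the translocon, at 879, 869 and 896 against 462, 446 and 388 CPM (log2 fold change 1.03, SE 0.088, adjusted p = 0.000118). Tusc3, a subunit of the other form of that enzyme, was lower (9.45, 9.05 and 8.58 against 12.1, 13.8 and 14.2 CPM; log2 fold change -0.57, SE 0.098, adjusted p = 0.00249), whereas its paralog Magt1 was higher (483, 457 and 517 against 192, 204 and 164 CPM; log2 fold change 1.38, SE 0.10, adjusted p = 6.85e-05). Of 46 genes of ER to Golgi transport, 43 were called higher and none lower (median 0.76). The cargo exporter gene Mia2 was at 363, 363 and 405 against 125, 138 and 127 CPM (log2 fold change 1.53, SE 0.083, adjusted p = 3.05e-05), and Sec24d, a coat subunit of export vesicles, at 494, 492 and 517 against 251, 215 and 223 CPM (log2 fold change 1.13, SE 0.083, adjusted p = 6.8e-05). Ergic3 and Sec13, at log2 fold changes of -0.0073 and 0.01, were not called (Ergic3 at 0.17, adjusted p = 0.0436, without IgG1 PC replicate 1), and IgG1 PC replicate 1 was the highest library of its group in both and in 31 of the 43 called genes.

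The plasma cell regulators rose in part. Of 18 regulators, 9 were called higher in IgE PC, none lower and 9 not (median log2 fold change 0.43). Irf4 was at 1889, 1919 and 1948 CPM in IgE PC and 1189.6, 1209.5 and 1063 CPM in IgG1 PC (log2 fold change 0.73, SE 0.084, adjusted p = 0.000383). Prdm1, which encodes Blimp-1, was at 200.1, 198 and 179 against 168, 183 and 159 CPM and was not called (log2 fold change 0.18, SE 0.084, adjusted p = 0.113). Xbp1 was at 1578, 1631 and 1676 against 2023, 1440.5 and 1397 CPM and was not called either (log2 fold change 0.0073, SE 0.15, adjusted p = 0.971); gene counts do not tell its spliced from its unspliced form. For Xbp1 the IgE PC libraries lay between IgG1 PC replicate 1 and the other 2. Cebpb, a stress-responsive leucine zipper factor, was the regulator with the largest rise, at 28.8, 30.7 and 28.1 against 9.48, 6.098 and 7.58 CPM (log2 fold change 1.93, SE 0.15, adjusted p = 8.42e-05). The elongation factor Ell2, which favours secretory immunoglobulin mRNA, was at 576, 546 and 624 against 355, 376 and 336 CPM (log2 fold change 0.71, SE 0.085, adjusted p = 0.00046), and Bhlha15 (Mist1) at 271, 273 and 262 against 203, 146 and 144 CPM (log2 fold change 0.71, SE 0.14, adjusted p = 0.00381).

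All 20 plasma cell surface genes were called, 13 higher and 7 lower in IgE PC. Sdc1 (CD138) was at 266, 273 and 297 CPM in IgE PC and 175, 128 and 135 CPM in IgG1 PC (log2 fold change 0.93, SE 0.12, adjusted p = 0.000755). The survival receptor Tnfrsf17 (BCMA) was low in both, at 6.62, 7.09 and 7.72 against 4.46, 2.76 and 3.08 CPM (log2 fold change 1.07, SE 0.19, adjusted p = 0.00278). Cd28, a survival coreceptor of long-lived plasma cells, was at 51.05, 49.8 and 56.9 against 13.8, 17.6 and 12.7 CPM (log2 fold change 1.84, SE 0.13, adjusted p = 5.67e-05). The homing receptor Cxcr4, which draws plasma cells to bone marrow, was at 89.1, 86.2 and 82.04 against 39.3, 34.2 and 37.1 CPM (log2 fold change 1.22, SE 0.079, adjusted p = 4.6e-05), and the integrin chain Itga4 at 266, 257 and 276 against 66.96, 124 and 104 CPM (log2 fold change 1.43, SE 0.20, adjusted p = 0.000929). Itga4 varied among IgG1 PC libraries, with replicate 1 the lowest, while Cxcr4 was nearly level. On the other side, Ly6d was at 164, 175 and 149.6 against 326, 285 and 304 CPM (log2 fold change -0.90, SE 0.089, adjusted p = 0.000204) and Cd37 at 289.8, 292 and 254 against 418, 426 and 439 CPM (log2 fold change -0.62, SE 0.081, adjusted p = 0.000712). Lag3, an inhibitory receptor, was at 0.0992, 0.0544 and 0 CPM in IgE PC and 0.679, 1.49 and 1.89 CPM in IgG1 PC, and passed the count filter through IgG1 PC, so no fold is given.

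Genes of B cell identity were mostly lower in IgE PC. Of 24 regulators, 13 were called lower, 2 higher and 9 not (median log2 fold change -0.36). Pax5, the factor that holds B cell identity, was at 119, 125 and 107 CPM in IgE PC and 171, 313 and 307 CPM in IgG1 PC (log2 fold change -1.17, SE 0.22, adjusted p = 0.00325). Spib was at 63.7, 58.2 and 42.9 against 189, 281 and 290.1 CPM (log2 fold change -2.21, SE 0.20, adjusted p = 0.000152), and Ciita, the activator of MHC class II genes, at 36.1, 39.03 and 30.5 against 117, 192 and 190.2 CPM (log2 fold change -2.24, SE 0.20, adjusted p = 0.000137). Bach2 and Bcl6, which oppose the plasma cell fate, were not called, at 27.96, 26.5 and 21.96 against 18.6, 36.8 and 33.9 CPM and 15.4, 14.1 and 14.97 against 14.1, 16.6 and 18.2 CPM. Mitf, a repressor of Irf4, ran the other way at a low level, 4.39, 3.86 and 4.44 against 1.122, 1.17 and 0.994 CPM (log2 fold change 1.95, SE 0.17, adjusted p = 0.000116), and Foxo1 was at 168, 162 and 169.8 against 121, 134 and 122 CPM (log2 fold change 0.41, SE 0.072, adjusted p = 0.00277). IgG1 PC replicate 1 was the lowest library of its group in 11 of the 13 genes called lower, against 43.6% of all genes tested, so it again lay nearest to IgE PC.

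B cell surface molecules and antigen presentation genes were mostly lower in IgE PC. Of 26 surface molecules tested, 19 were called lower, 1 higher and 6 not (median log2 fold change -0.63). Cd72, an inhibitory coreceptor, was at 4.34, 4.76 and 3.11 CPM in IgE PC and 45.5, 59.1 and 58.6 CPM in IgG1 PC, 13.3-fold lower in IgE PC (log2 fold change -3.74, SE 0.17, adjusted p = 2.74e-05). The chemokine receptors Ccr7 and Ccr6 were both lower; Ccr7 was at 4.54, 4.51 and 4.08 against 31.4, 45.2 and 48.7 CPM (log2 fold change -3.25, SE 0.18, adjusted p = 3.05e-05). Cd40, the receptor for the feeder's ligand, was at 10.8, 10.8 and 9.26 against 22.5, 30.3 and 31.4 CPM (log2 fold change -1.45, SE 0.14, adjusted p = 0.000186). Ms4a1 (CD20), at 842, 745 and 765 against 526, 945 and 691 CPM, and Ptprc, at 675, 639 and 687 against 476, 738 and 647 CPM, were not called, and Cd24a was higher (log2 fold change 0.53, SE 0.10, adjusted p = 0.00368).

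Of 12 MHC class II genes, 11 were called lower in IgE PC and none higher (median log2 fold change -1.06). H2-Aa was at 837, 872 and 823 CPM in IgE PC and 1811, 1811 and 1780.2 CPM in IgG1 PC (log2 fold change -1.09, SE 0.074, adjusted p = 5.18e-05). H2-Eb1 was at 580.5, 597 and 558 against 1368, 1297 and 1414 CPM (log2 fold change -1.23, SE 0.078, adjusted p = 4.51e-05), and H2-Oa, which restrains peptide loading, at 20.7, 20.9 and 19.6 against 68.8, 71.2 and 78.7 CPM (log2 fold change -1.84, SE 0.079, adjusted p = 2.57e-05). IgG1 PC libraries were close to each other in these genes, with a median SD of log2 CPM of 0.084 over the list against 0.19 over all genes tested. The invariant chain Cd74 differed less, at 6336, 6438 and 6421 against 8699.5, 7271 and 7808 CPM (log2 fold change -0.31, SE 0.099, adjusted p = 0.0323; call lost under 7 of 15 alternatives), and the protease Ctss, at 329.7, 310.2 and 317 against 379, 355 and 336 CPM, was not called.

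The MS4A and LILR receptor families held 3 of the 15 largest falls. Of 16 genes listed only 9 passed the count filter, and a gene expressed in IgG1 PC alone can pass it through that group, so the 8 called lower are given as values only. Ms4a6c was at 1.19, 1.11 and 1.07 CPM in IgE PC and 22.3, 36.7 and 32.4 CPM in IgG1 PC (log2 fold change -4.76, SE 0.22, adjusted p = 2.74e-05). Ms4a4c was at 0.645, 0.842 and 0.917 against 11.5, 20.9 and 14.2 CPM (log2 fold change -4.28, SE 0.27, adjusted p = 4.59e-05). The inhibitory receptor Lilrb4a was at 6.33, 8.26 and 6.72 against 61.1, 139.5 and 103 CPM (log2 fold change -3.83, SE 0.30, adjusted p = 8.65e-05). In all 3 genes IgG1 PC replicate 1 had the lowest level of its group yet lay far above every IgE PC library. Members of both families are close paralogs, and the counts of these 3 were fractional in some libraries, so reads may have been divided among copies.

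Several chemokine and cytokine genes were lower in IgE PC by large folds. Of 22 genes, 18 were tested, 13 were called lower in IgE PC, 2 higher and 3 not (values only, as several passed the filter through IgG1 PC). Ccl22, a chemokine that draws T cells, had the largest fall outside immunoglobulin genes by the same rule as for the rises, from 124, 253 and 233 CPM in IgG1 PC to 4.71, 5.54 and 5.59 CPM in IgE PC, 38.6-fold (log2 fold change -5.27, SE 0.29, adjusted p = 3.09e-05). Tnf was at 2.68, 2.64 and 1.63 against 9.48, 14.8 and 15.6 CPM (log2 fold change -2.52, SE 0.25, adjusted p = 0.000212), Lta, lymphotoxin alpha, at 5.04, 4.73 and 4.17 against 22.7, 33.3 and 34.5 CPM (log2 fold change -2.70, SE 0.18, adjusted p = 4.65e-05), and Csf1, the macrophage growth factor, at 5.83, 6.66 and 4.23 against 34.9, 27.3 and 39.7 CPM (log2 fold change -2.60, SE 0.19, adjusted p = 7.05e-05). The groups did not overlap in any of these 4. The 4 members that did not reach the count filter are in no count, and Ccl3, Ccl4 and Tnfsf4, at no more than 2.64 CPM in any library and near 0 in IgE PC, passed it through IgG1 PC, so no fold is given for them. Vegfa, the vascular growth factor and a known target of Atf4, was the gene that ran the other way at a substantial level, 417, 467 and 521 against 159, 152 and 188 CPM (log2 fold change 1.496, SE 0.12, adjusted p = 8.58e-05). Cxcl10 was also called higher, but at no more than 1.04 CPM in any library and with its call lost under 5 of 15 alternatives. Ebi3, at 128, 134 and 123 against 135, 92.4 and 102 CPM, was not called.

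Activation-induced transcription factors were split within families. Of 26, 13 were called lower in IgE PC, 4 higher and 9 not (median log2 fold change -0.55). Egr2 was at 12.5, 15.9 and 12.6 CPM in IgE PC and 46.7, 61.8 and 52.5 CPM in IgG1 PC (log2 fold change -1.98, SE 0.14, adjusted p = 5.48e-05), and Egr3 at 0.868, 1.55 and 0.503 against 6.91, 13.3 and 12.6 CPM (log2 fold change -3.49, SE 0.40, adjusted p = 0.000371). Nr4a1 (Nur77), a reporter of antigen receptor signals, was at 0.521, 0.598 and 0.326 against 3.603, 3.78 and 4.31 CPM (log2 fold change -3.00, SE 0.24, adjusted p = 9.69e-05). Egr1, Fos and Fosb were not called. Egr1 was at 209.5, 239 and 139 against 278, 308 and 203 CPM and Fos at 154, 120.3 and 90.3 against 165, 128 and 76.2 CPM, and replicate 3 was the lowest library of both groups in both genes. Bhlhe40 was at 7.69, 6.71 and 5.74 against 36.6, 47.4 and 48.9 CPM (log2 fold change -2.72, SE 0.15, adjusted p = 3.05e-05) and Myc at 38.3, 41.1 and 39.5 against 65.2, 65.1 and 65.6 CPM (log2 fold change -0.72, SE 0.064, adjusted p = 0.000135). Nfil3, a leucine zipper factor with a role in IgE switching, was higher, at 45.3, 45.4 and 46.7 against 17.1, 15.7 and 17.7 CPM (log2 fold change 1.44, SE 0.073, adjusted p = 3.05e-05).

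NF-kB genes were mostly lower too, by smaller amounts. Of 22, 13 were called lower in IgE PC (8 without IgE PC replicate 3), 1 higher and 8 not (median log2 fold change -0.35). Traf1 was at 16.3, 15.7 and 16.6 against 33.7, 44.2 and 48.8 CPM (log2 fold change -1.38, SE 0.13, adjusted p = 0.000182), Nfkbie at 22.4, 23.3 and 20.1 against 40.6, 53.9 and 52.4 CPM (log2 fold change -1.16, SE 0.12, adjusted p = 0.000255), and Nfkb2, the subunit precursor of the non-canonical arm, at 102, 104 and 89.8 against 151, 187 and 205 CPM (log2 fold change -0.88, SE 0.12, adjusted p = 0.000928). Rela, at 74.3, 77.6 and 76.2 against 73.8, 71.9 and 77.5 CPM, was not called. Cflar, an inhibitor of caspase-8, was the gene called higher, at 191, 186 and 206 against 86.4, 122 and 99.9 CPM (log2 fold change 0.92, SE 0.13, adjusted p = 0.000832).

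B cell receptor signalling genes went both ways. Of 36, 11 were called higher, 13 lower (8 without IgE PC replicate 3) and 12 not (median log2 fold change -0.10). Over all genes tested 24.3% were called higher and 26.1% lower (median -0.02), so these counts set the list little apart. For the list, total-count scaling gave 5 higher and 19 lower (median -0.35). Cd79a, a signal chain of the receptor, was at 815, 827 and 793 CPM in IgE PC and 1622, 1299 and 1381 CPM in IgG1 PC (log2 fold change -0.82, SE 0.10, adjusted p = 0.000506), while its partner Cd79b was not called, at 693, 702 and 675 against 803, 655 and 699 CPM. The kinase Syk was at 114, 117 and 121 against 243, 247 and 259.7 CPM (log2 fold change -1.09, SE 0.069, adjusted p = 4.54e-05), and the Src-family kinase Blk at 65.8, 75.1 and 58.7 against 120.0, 142 and 147 CPM (log2 fold change -1.04, SE 0.12, adjusted p = 0.000367). Another Src-family kinase, Fyn, ran the other way, at 416, 399 and 400.1 against 191, 178 and 181 CPM (log2 fold change 1.14, SE 0.07, adjusted p = 4.22e-05). Inpp4b, a lipid phosphatase that limits PI3K signals, was at 59.7, 55.2 and 62.5 against 8.57, 17.8 and 13.2 CPM (log2 fold change 2.15, SE 0.23, adjusted p = 0.000266), and Sos1 and Vav3 were 2.38-fold and 2.40-fold higher. Plcg2, the phospholipase whose product releases calcium from the ER, was at 498, 503 and 499 against 462, 453 and 472 CPM and was not called (log2 fold change 0.11, SE 0.067, adjusted p = 0.192). Bank1, an adaptor of calcium release, was lower, at 21.3, 18.9 and 18.3 against 39.4, 66.1 and 64.2 CPM (log2 fold change -1.54, SE 0.19, adjusted p = 0.000558).

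Calcium handling genes, the subject of the study's title, differed mostly by modest amounts. Of 42 listed, 41 were tested, 18 were called higher in IgE PC, 10 lower and 13 not (median log2 fold change 0.21, which became -0.04 under total-count scaling). Under that scaling 8 were called higher and 14 lower. Atp2a2 (SERCA2), the pump that fills the ER store, was at 615, 601 and 655 CPM in IgE PC and 313, 319 and 314 CPM in IgG1 PC (log2 fold change 0.98, SE 0.072, adjusted p = 6.44e-05), while Atp2a3 (SERCA3) was lower, at 370.4, 378 and 349 against 486, 495 and 518 CPM (log2 fold change -0.45, SE 0.073, adjusted p = 0.00183). The pump isoforms therefore differed in opposite directions. Calr, which buffers calcium in the ER and is also a chaperone, was at 4361, 4349.6 and 4366 against 2645, 2045 and 2011 CPM (log2 fold change 0.96, SE 0.12, adjusted p = 0.000591). The release channels split as well: Itpr3 was at 67.3, 72.8 and 63.3 against 112, 128 and 133 CPM (log2 fold change -0.87, SE 0.093, adjusted p = 0.000285), Itpr2 at 134, 132 and 115 against 85.9, 97.7 and 94.5 CPM (log2 fold change 0.45, SE 0.09, adjusted p = 0.00451), and Itpr1, at 96.2, 94.2 and 87.01 against 65.9, 118 and 116 CPM, was not called.

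Genes of store-operated entry and of the calcineurin branch went both ways. Stim1, the store sensor, was at 93.3, 92.8 and 94.9 against 78.7, 76.5 and 76.9 CPM (log2 fold change 0.28, SE 0.063, adjusted p = 0.00809) and Stim2 at 27.3, 26.3 and 30.2 against 19.996, 21.04 and 18.7 CPM (log2 fold change 0.49, SE 0.084, adjusted p = 0.0024). The channel genes Orai1 and Orai2 were not called, and Orai3 was lower (log2 fold change -0.30, SE 0.073, adjusted p = 0.0107), a call lost without IgE PC replicate 3. The calcineurin subunits Ppp3ca, Ppp3cb, Ppp3cc and Ppp3r1 were all called higher, from 0.46 to 0.84 on the log2 scale. Rcan3, a regulator of calcineurin, was lower, at 2.48, 2.28 and 2.04 against 5.02, 4.43 and 4.71 CPM (log2 fold change -1.05, SE 0.15, adjusted p = 0.000891). Of the NFAT factors that calcineurin activates, Nfatc3 was higher (log2 fold change 0.49, SE 0.13, adjusted p = 0.0153), Nfatc1 lower (log2 fold change -0.42, SE 0.081, adjusted p = 0.00394) and Nfatc2 not called. The calls of Stim1, Ppp3cb and Nfatc3 were lost under total-count scaling, and that of Nfatc3 also without IgE PC replicate 1. Beyond these, Camkk2, a calmodulin-dependent kinase, was at 5.68, 5.897 and 5.42 against 9.27, 12.9 and 14.4 CPM (log2 fold change -1.11, SE 0.16, adjusted p = 0.00122), and Tmem178b, at no more than 0.702 CPM in any library, was close to 0 in IgE PC. Kcnn4, the calcium-activated potassium channel of lymphocytes, was at 208, 210.1 and 212 against 207, 137 and 150.1 CPM and was not called (log2 fold change 0.35, SE 0.15, adjusted p = 0.078); its IgG1 PC replicate 1 stood beside the IgE PC libraries.

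Among regulators of apoptosis the BCL2 family genes divided by member. Of 21 listed, 17 were tested, 6 were called higher in IgE PC, 7 lower and 4 not. Bcl2 was at 204, 184 and 182 CPM in IgE PC and 78.3, 93.1 and 77.3 CPM in IgG1 PC (log2 fold change 1.20, SE 0.097, adjusted p = 9.69e-05). Bcl2l1 (Bcl-xL), another inhibitor of apoptosis, was lower, at 17.5, 18.6 and 19.1 against 48.9, 37.7 and 44.6 CPM (log2 fold change -1.25, SE 0.11, adjusted p = 0.000113), as was Bcl2a1b (25.1, 23.5 and 24.03 against 44.2, 66.1 and 61.1 CPM; log2 fold change -1.24, SE 0.14, adjusted p = 0.000394), whose reads may be shared with its near-identical copies. Mcl1, on which plasma cells are known to depend, was at 825, 773 and 817 against 675, 674 and 589 CPM (log2 fold change 0.32, SE 0.085, adjusted p = 0.0159), and its call was lost under 4 of 15 alternatives. The pro-apoptotic genes divided too. Bbc3 (Puma) was at 35.8, 34.1 and 37.8 against 17.99, 13.9 and 14.3 CPM (log2 fold change 1.23, SE 0.11, adjusted p = 0.000142) and Bmf at 48.5, 52.6 and 51.3 against 24.5, 28.1 and 25.4 CPM (log2 fold change 0.97, SE 0.078, adjusted p = 9.69e-05), both higher, while Bcl2l11 (Bim) was lower, at 104, 102 and 99.4 against 169, 185 and 179 CPM (log2 fold change -0.80, SE 0.07, adjusted p = 0.000127). Bax, at 57.99, 57.7 and 55.8 against 71.8, 54.3 and 57.2 CPM, and Bak1, at 77.5, 77.02 and 78.8 against 91.1, 77.6 and 83.98 CPM, were not called.

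**Figure D3:**
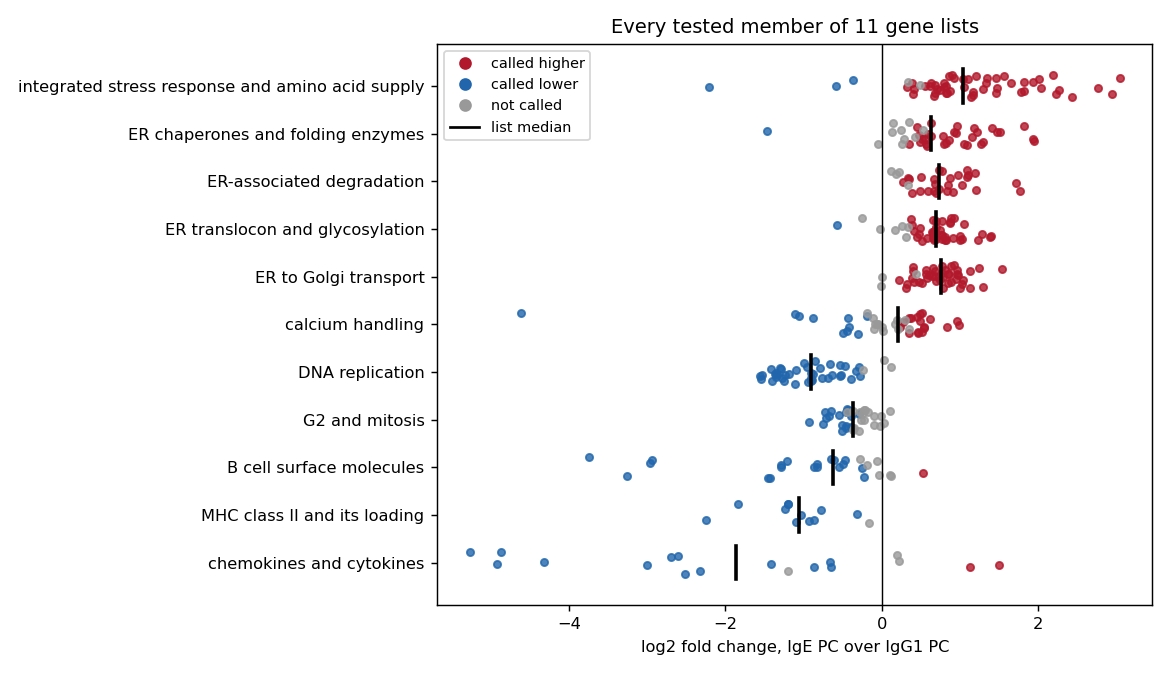
Log2 fold change of IgE PC over IgG1 PC for every tested member of 11 gene lists, coloured by call, with a black bar at each list's median. The stress and secretory lists have medians from 0.63 to 1.05, DNA replication and MHC class II have medians of -0.91 and -1.06, and calcium handling holds members on both sides of 0.

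DNA replication genes were lower in IgE PC almost throughout. Of 42, 39 were called lower, none higher and 3 not (median log2 fold change -0.91). Mcm3, of the replicative helicase, was at 53.1, 56.4 and 49.7 CPM in IgE PC and 136, 160.5 and 164 CPM in IgG1 PC (log2 fold change -1.53, SE 0.097, adjusted p = 4.51e-05), and Mcm7 at 57.3, 59.3 and 59.9 against 136, 138 and 144 CPM (log2 fold change -1.24, SE 0.067, adjusted p = 3.05e-05). The ligase Lig1 was at 39.3, 40.9 and 38.4 against 99.03, 99.7 and 103 CPM (log2 fold change -1.35, SE 0.067, adjusted p = 3.05e-05). The spread of these genes among IgG1 PC libraries was small, with a median SD of 0.10. Cdt1, which licenses origins, was at 49.3, 50.4 and 51.6 against 48.7, 42.8 and 48.2 CPM and was not called.

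Mitotic genes differed less. Of 35, 17 were called lower in IgE PC, none higher and 18 not (median log2 fold change -0.36), a count that moved with single libraries and the scaling: 6 were called without IgE PC replicate 1 or without replicate 2, 8 without IgG1 PC replicate 3, 26 without IgG1 PC replicate 1 and 27 under total-count scaling. Mki67, the proliferation marker, was at 1170.5, 1236 and 1240.5 CPM in IgE PC and 965, 1212 and 1198 CPM in IgG1 PC and was not called (log2 fold change 0.11, SE 0.10, adjusted p = 0.404). Cdk1, the mitotic kinase, was at 36.96, 42.1 and 45.4 against 62.2, 64.1 and 68.3 CPM (log2 fold change -0.65, SE 0.091, adjusted p = 0.000966), and Kif20a, a motor of cytokinesis, at 31.6, 35.7 and 42.7 against 60.8, 71.1 and 77.1 CPM (log2 fold change -0.93, SE 0.13, adjusted p = 0.000996). Replicate 3 was the highest library of both groups in both of these genes. Among G1 regulators, Ccnd2 was at 501, 489.8 and 465 against 310.5, 351 and 319 CPM (log2 fold change 0.57, SE 0.079, adjusted p = 0.000922) and the inhibitors Cdkn1a and Cdkn1b were 1.72-fold and 1.57-fold higher, and Cdk4 was lower (95.7, 101 and 93.7 against 143, 146 and 150.2 CPM; log2 fold change -0.60, SE 0.068, adjusted p = 0.000387).

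Metabolic lists fell mainly on the IgG1 side or near the background. Of 22 glycolysis genes, 10 were called lower in IgE PC and 3 higher (median log2 fold change -0.32). Ldha, lactate dehydrogenase A, was at 133, 136 and 123 against 245, 229 and 247 CPM (log2 fold change -0.88, SE 0.075, adjusted p = 0.000116), and Pfkp, a phosphofructokinase, ran the other way at 106, 101 and 117 against 49.4, 53.1 and 64.3 CPM (log2 fold change 0.96, SE 0.11, adjusted p = 0.00043). Of 43 nuclear genes of oxidative phosphorylation, 9 were called lower and 1 higher, a smaller share than over all genes. For this list IgG1 PC replicate 1 was the highest of its group in all 9 genes called lower. The 9 became 3 to 5 without a single IgE PC library, 14 without IgG1 PC replicate 2 and 32 under total-count scaling. Transcripts of the list were short, at a median of 1.36 kb against 3.05 kb over all genes tested. With a trend on transcript length removed from each library, 7 were called lower and 4 higher. The list's median log2 fold change then moved from -0.15 to -0.04. Of 37 sterol and fatty acid genes, 20 were called lower (12 without IgE PC replicate 3) and 3 higher (median -0.24). Abca1, the cholesterol exporter, was among the higher ones, at 77.8, 72.9 and 81.4 against 26.7, 30.4 and 37.5 CPM (log2 fold change 1.29, SE 0.12, adjusted p = 0.000183).

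Antioxidant and autophagy genes held changes in both directions. Hmox1, the heme oxygenase induced by oxidative stress, was at 37.7, 38.4 and 39.6 against 15.98, 10.7 and 14.7 CPM (log2 fold change 1.49, SE 0.14, adjusted p = 0.00017), and Gsr, which reduces glutathione, at 22.7, 20.9 and 23.8 against 13.1, 12.6 and 13.3 CPM (log2 fold change 0.79, SE 0.081, adjusted p = 0.000236). Gpx1, a glutathione peroxidase, was lower (58.6, 60.5 and 55.5 against 104, 91.9 and 106 CPM; log2 fold change -0.79, SE 0.081, adjusted p = 0.000245). Over the antioxidant list, differences of at least 2-fold were called for 2 genes higher in IgE PC and 5 lower. At any fold, 11 of 33 genes were called higher and 8 lower, against 24.3% and 26.1% of all genes tested. These counts set the list little apart. The 8 became 4, 3 and 4 without IgE PC replicate 1, IgE PC replicate 3 and IgG1 PC replicate 3. Total-count scaling turned the balance to 6 higher and 11 lower, and the median from 0.06 to -0.17. Of 32 autophagy genes 15 were called higher and 2 lower (median log2 fold change 0.28), against 7 and 8 under total-count scaling (median 0.04). The higher ones were led by the cargo receptor Sqstm1 (p62) at 866, 858 and 882 against 440.4, 312 and 356 CPM (log2 fold change 1.23, SE 0.13, adjusted p = 0.000236). Tfeb, the regulator of lysosomal genes, was lower (32.2, 33.6 and 30.96 against 46.5, 47.8 and 53.8 CPM; log2 fold change -0.61, SE 0.08, adjusted p = 0.000688).

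Receptors for cytokines and genes of the IL-4 response were also compared, since all cells had met IL-4 for 6 days. Of 22 IL-4 pathway genes, 10 were called lower in IgE PC, 4 higher and 8 not (median log2 fold change -0.20). Il4ra was at 90.7, 91.2 and 76.5 CPM in IgE PC and 142, 159.8 and 165 CPM in IgG1 PC (log2 fold change -0.85, SE 0.099, adjusted p = 0.000411). Il4i1, an amino acid oxidase induced by IL-4, was at 36.9, 38.7 and 29.1 against 249.8, 315 and 309 CPM (log2 fold change -3.06, SE 0.14, adjusted p = 2.74e-05), and the low-affinity IgE receptor Fcer2a (CD23) at 199, 198 and 154 against 273, 367 and 366 CPM (log2 fold change -0.87, SE 0.15, adjusted p = 0.00221). Il13ra1, a chain of the IL-4 and IL-13 receptor, was low but higher in IgE PC, at 2.75, 2.31 and 2.63 against 0.354, 0.585 and 0.431 CPM (log2 fold change 2.46, SE 0.25, adjusted p = 0.00022). Il9r, outside the list but among the 15 largest falls, was at 17.8, 19.2 and 17.8 against 126, 227 and 215 CPM (log2 fold change -3.37, SE 0.22, adjusted p = 4.87e-05). The remaining large falls in that group were Sorl1 (14.0-fold), Shank1 (13.2-fold), Myo1f (12.6-fold), Igsf3 (10.5-fold), Grm6 (9.78-fold), Stum (9.74-fold) and Tlr1 (9.67-fold), all with groups that did not overlap and all with IgG1 PC replicate 1 as the lowest of its group.

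Homing genes divided as well. Over the whole list, which includes Cxcr4, Itga4, Ccr7 and Ccr6, 6 of 27 tested were called higher (3 under total-count scaling) and 13 lower (median log2 fold change -0.41). S1pr1, the egress receptor, was at 47.4, 42.8 and 39.6 against 22.8, 33.4 and 28.8 CPM (log2 fold change 0.61, SE 0.14, adjusted p = 0.00828), while Klf2, which drives its expression in lymphocytes, was lower, at 25.3, 25.6 and 19.8 against 43.95, 55.4 and 58.3 CPM (log2 fold change -1.16, SE 0.14, adjusted p = 0.000465). Of 30 interferon-stimulated genes 8 were called higher, near the share over all genes, and 4 lower, below it (median log2 fold change 0.21). The higher count was 5 without any single IgE PC library, 14 without IgG1 PC replicate 1 and 13 with all 15 libraries in the fit, and total-count scaling gave 2 higher and 5 lower with a median of -0.02. Trim30a was at 186, 181 and 191 against 73.99, 99.6 and 79.2 CPM (log2 fold change 1.14, SE 0.12, adjusted p = 0.000221), and Gbp2 and Gbp3 were lower (log2 fold change -2.05, SE 0.18, adjusted p = 0.000138 for Gbp2).

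The IgG1 PC libraries differed from each other along more than a single axis. Pearson correlations of log2 CPM across genes were between 0.978 and 0.986 for IgG1 PC pairs and between 0.989 and 0.992 for IgE PC pairs. The chi-square per degree of freedom between libraries ran from 27.5 to 94.5 in IgG1 PC and from 6.21 to 11.2 in IgE PC. The ratio of the median SD of IgG1 PC to that of IgE PC was 2.04. With an IgG1 PC library left out, its SD came from the remaining libraries and that of IgE PC still from all 3. Such ratios compare with each other but are not on the scale of 2.04. They were 1.21 without replicate 1, 1.68 without replicate 2 and 2.14 without replicate 3, so the lowest was without replicate 1.

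Replicate 1 of IgG1 PC differed from the other 2 by transcript length. Genes were grouped by their longest GENCODE transcript. For the 1637 genes up to 1 kb, replicate 1 lay a median of 0.15 above its group mean on the log2 scale, and for the 679 genes over 8 kb it lay 0.28 below. Replicates 2 and 3 ran the other way, from -0.12 and -0.02 to 0.18 and 0.11, while no IgE PC library moved by more than 0.03 in any length class. The median log2 fold change between the isotypes ran with length as well, from -0.15 up to 1 kb to 0.23 over 8 kb, and without replicate 1 from -0.06 to 0.12. Its part in the fold changes of single genes was tested only by removing the length trend from each library. That gave 7552 genes called of 14268, 6818 of them shared with the main analysis in the same direction. After the removal the median log2 fold change still ran from -0.10 up to 1 kb to 0.09 over 8 kb, so part of the trend remained.

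**Figure D4:**
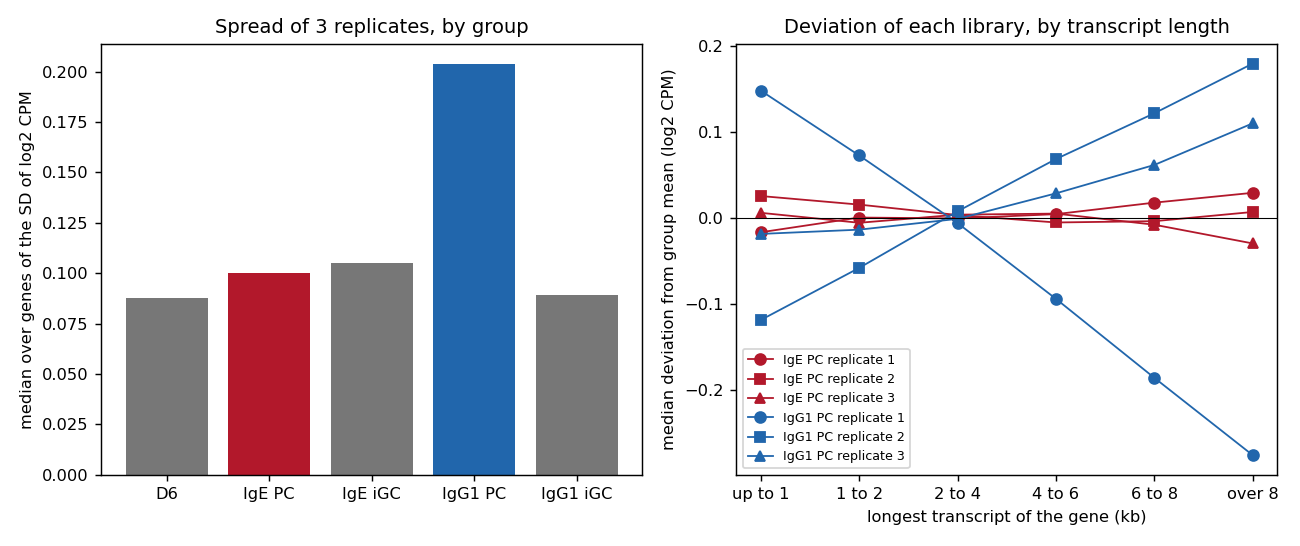
Left, median over 15692 genes of the SD of log2 CPM among the 3 replicates of each group (bars start at 0); IgG1 PC is at 0.20 and the other groups at 0.088 to 0.11. Right, median deviation of each library from its group mean (log2 CPM) by length of the gene's longest transcript; IgG1 PC replicate 1 falls from 0.15 to -0.28.

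Replicate 2 of IgG1 PC differed from the other 2 in genes of fibroblasts. Of the 10 genes with the largest SD in IgG1 PC at a mean of at least 10 CPM, 2 are listed fibroblast genes with replicate 2 the lowest. These were Col1a2 at 40.2, 13.4 and 46.999 CPM and Thbs1 at 17.5, 4.18 and 11.6 CPM. C3, at 44.1, 10.2 and 29.8 CPM, and S100a6, at 37.2, 9.62 and 21.5 CPM, are outside that list and were lowest in replicate 2 as well. Mid1 was also lowest there, at 22.2, 6.37 and 35.7 CPM, but its IgE PC values varied as widely, at 9.38, 2.201 and 8.67 CPM. The others were the small RNAs Rn7s1, Rn7s2 and Mir6236, which polyA libraries capture poorly, and Pagr1a and Srcap. Srcap, a chromatin remodeller, was at 36.7, 109 and 129.6 CPM in IgG1 PC and 139, 139 and 125 CPM in IgE PC, low in replicate 1 alone, though part of its counts were fractional.

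Genes of the feeder layer were present in all 6 plasma cell libraries and at a higher level in IgG1 PC. The 17 listed fibroblast genes summed to 35.1, 35.8 and 20.7 CPM of the raw total in IgE PC and to 203, 75.0 and 217 CPM in IgG1 PC, against 409 to 671 CPM in D6 and 39.5 to 91.5 CPM in the iGC groups. Of the 12 that were tested, 11 were called lower in IgE PC, against 26.1% of all genes tested, and Postn and Lum were at or near 0. The count of 11 ran from 6 to 12 under the alternatives, and Col1a2 and Thbs1 each lost their call under 2 of 15. A gene low in IgE PC can pass the count filter through IgG1 PC, so nothing is read from the share. Col1a1 was at 11.9, 11.5 and 6.78 CPM in IgE PC and 74.96, 27.1 and 65.3 CPM in IgG1 PC (log2 fold change -2.46, SE 0.39, adjusted p = 0.00161). Replicate 2 of IgG1 PC was the lowest of its group in all 11. The same order was seen in Ccnd1, at 4.69, 4.62 and 2.75 against 15.5, 6.93 and 17.2 CPM (log2 fold change -1.71, SE 0.36, adjusted p = 0.00552), and in C3, at 5.41, 6.22 and 4.38 CPM in IgE PC (log2 fold change -2.38, SE 0.48, adjusted p = 0.0047; call lost with no count filter). The part of feeder RNA in these 2 results was not tested. For the chemokine genes called lower the order was another one, with replicate 1 the lowest in 9 of 13 and replicate 2 in 4, and for the MS4A and LILR genes replicate 1 was the lowest in 7 of 8.

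**Figure D5:**
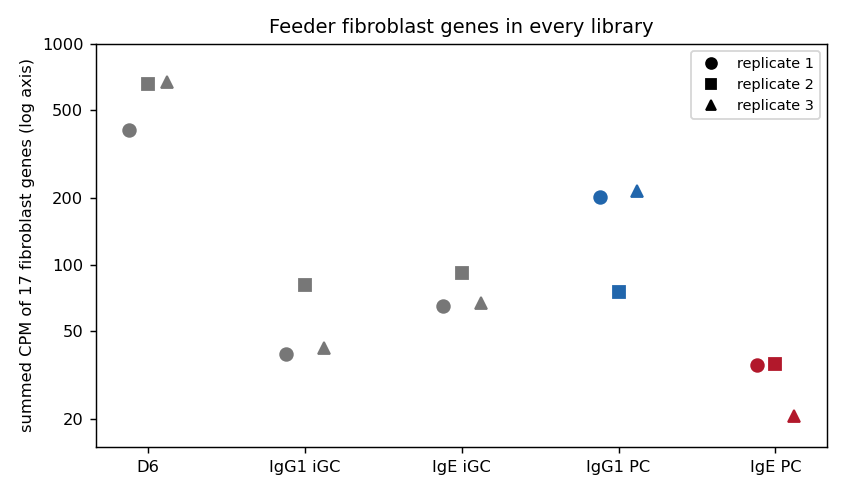
Summed CPM (of raw library totals, log axis) of 17 fibroblast genes in each of the 15 libraries by group, with a marker for each replicate. IgG1 PC replicates 1 and 3 are at 203 and 217 CPM, replicate 2 at 75.0 CPM, and the IgE PC libraries at 20.7 to 35.8 CPM.

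Some markers of dendritic cells were also lower in IgE PC. Flt3 was at 7.17, 8.02 and 7.55 CPM in IgE PC and 28.1, 40.5 and 42.8 CPM in IgG1 PC (log2 fold change -2.30, SE 0.16, adjusted p = 5.81e-05), and Zbtb46 at 2.01, 2.45 and 1.89 against 6.91, 11.9 and 11.6 CPM (log2 fold change -2.27, SE 0.23, adjusted p = 0.000244), while Itgax was at 0 in every IgE PC library and below 1 CPM in IgG1 PC. Over the list of 8 dendritic genes the sums given above compare with 58.01 to 59.08 CPM in D6 and 63.8 to 134 CPM in the iGC groups. Of the 5 tested, 4 were called lower and Xcr1, under 1 CPM, higher, with its call lost under 3 of 15 alternatives. Itgax passed the count filter only through IgG1 PC, so nothing is read from the share called. The part of dendritic cell genes in the results was not tested.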

How the data were processed

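PolyA RNA of 15 libraries was sequenced as strand-specific 76 bp single-end reads, per the labels' protocols. The submitters' processing notes name cutadapt 1.9.1, STAR 2.5.2a, RSEM 1.3.0, DESeq2 1.12.3 and the build GRCm38. The annotation is not given in the sources used here. The authors deposited RSEM expected counts and TPM per gene. Expected counts are estimates that divide reads shared between genes, and between 90.95% and 93.53% of values per library were whole, so near-identical copies are uncertain. They were rounded to whole numbers. Of 51912 identifiers, 51633 were matched to symbols.

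The 6 plasma cell libraries were fitted on their own with edgeR 4.0.16 (filterByExpr at 10 counts and 15 in total, TMM, quasi-likelihood test, Benjamini-Hochberg over all genes tested), because IgG1 PC varied more than the other groups. This left 4 residual degrees of freedom. CPM values carry TMM factors except in the summed marker levels and the isotype genes, which use raw totals. Standard errors, given as SE, belong to log2 fold changes, and every adjusted p is edgeR's. TPM deposited by the authors served only for the spread and the immunoglobulin share. Between 32638720 and 54067953 counts per library set the precision. Fits were also run on simulated counts with 200 changed genes, a fixed spread per group and no length trend. That setting is simpler than these data, and no conclusion is drawn from it. Alternatives were DESeq2 1.42.0, limma 3.58.1 (voom with weights per group), a fit of all 15 libraries, other scalings, no filter, a replicate block, each library left out and, added after seeing the data, removal of a length trend per library.

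The genes and lists were chosen with earlier results of these data known. Named genes were the 15 largest rises and falls outside immunoglobulin and T cell receptor segments, mitochondrial genes, pseudogenes and unnamed models, with groups that did not overlap and a mean of at least 10 CPM in a group, up to 4 called members per list and direction with the smallest p and up to 2 uncalled ones with the highest mean, the 10 genes with the largest IgG1 PC spread, and 28 genes fixed by name. Of 221 tested genes named, 69 fall outside this rule and were chosen after their values were seen. Some genes that the rule names are not reported here.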

Additional observations from a re-analysis of the deposited data

How the results depend on the processing

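The count of genes called, 7215, lay between 5421 and 8215 with single libraries left out and between 6464 and 9119 under the other alternatives, the last with all 15 libraries in the fit. Total-count scaling moved the split most, to 1750 higher, 5760 lower and 271 higher by at least 2-fold, since it shifted the median of all genes to -0.26. DESeq2 called 7395 genes, voom with weights per group 7239, and the fit without immunoglobulin genes 7202. Whether replicate numbers pair the libraries is not known, and the main fit did not pair them. The correlations of same-numbered deviations were -0.0015, -0.13 and -0.11. They show no pairing but cannot exclude it, since they take all genes at once. In Egr1 and Fos replicate 3 was the lowest library of both groups, and in Cdk1 and Kif20a the highest. Such single genes, picked from many, do not settle it. With the replicate block 6464 genes were called, 3177 higher and 3287 lower, and 569 and 1607 by at least 2-fold. The block gave 540 called genes over the gene lists against 562, and an immunoglobulin share difference of 2.71 percentage points (exact sign-flip permutation, p = 0.5). It moved the called-lower oxidative phosphorylation genes from 9 to 5 and the called-lower mitotic genes from 17 to 21.

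The ratio of median SD between IgG1 PC and IgE PC, 2.04, was 2.31 on log2(TPM + 1) and 2.51 over the 7417 genes with a mean of at least 10 CPM in every group. With an IgG1 PC library left out it ran from 1.21 to 2.14. Those values take the IgG1 PC SD over fewer libraries than the IgE PC SD and are not on the scale of 2.04. Of 36 list counts of 5 or more, 22 stayed within 1.5 times under every alternative run. Of 185 called genes named, 163 kept call and direction under all 15 alternatives. Rela, not called, was called lower under total-count scaling (-0.21), and Ergic3 higher without IgG1 PC replicate 1 (0.17). The cause of these changes was not tested. With 3 libraries a group and 4 residual degrees of freedom, small differences in genes that vary among IgG1 PC libraries were not detectable, and a gene that was not called is not shown to be equal.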
